A study of Homo sapiens with 12 samples.

Results

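HSD17B10 makes a mitochondrial protein with more than 1 job, and 7 genes around it were followed in A375 melanoma cells with less ALKBH5, an enzyme that removes N6-methyladenosine (m6A) from RNA. The genes were HSD17B10, its partner in mitochondrial tRNA processing TRMT10C, the tRNA 3′-end nuclease ELAC2, and the HSD17B relatives HSD17B4, HSD17B8, HSD17B11 and HSD17B12. They were picked by name, with the expression contrast already known, from 29696 genes in the expression table, and all 7 were among the 12985 genes that passed the filter of a mean of 0.5 FPKM (fragments scaled to transcript length and to the mapped fragments of the library). Because the choice used this contrast, the expression differences of the 7 genes are given as a description, without a p-value.

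A375 is an established human melanoma line. Cells labelled shALKBH5, with the genotype ALKBH5 knockdown, were compared with cells labelled shCtrl, with the genotype wild type, and the labels name no treatment for either. Each group had 3 input libraries, which measure expression of poly(A) RNA, and 3 IP libraries of fragments pulled down with an m6A antibody. Both groups were infected with lentivirus. The study's methods describe puromycin selection, but give for the sequenced cells a harvest time after infection that is shorter than that course, so whether these cells were selected is not known. Which of the study's ALKBH5 hairpins was sequenced is not named in the labels. The study's statistics section gives a general statement of independent repeats that does not name the sequencing, and the labels do not say whether the 3 libraries of a group came from separate cultures, so p-values and SDs measure the spread between these libraries, which may be technical. The expression table gives no read counts and its low values show no steps of whole reads, so the depth is unknown. ALKBH5 itself was at 3.39, 3.92 and 3.12 FPKM in the shALKBH5 libraries and at 19.3, 17.8 and 17.6 FPKM in the shCtrl libraries, a log2 fold change of -2.36 (limma, adjusted p = 1.28e-06), in the direction of the labels.

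Of the melanocytic markers, SOX10 was at 180 to 181 FPKM in shALKBH5 and 179 to 192 FPKM in shCtrl, S100B was at 79.0 to 85.1 and 31.5 to 34.2 FPKM, and the pigment genes TYR, TYRP1, DCT and PMEL were below 1 FPKM in every library. MITF was at 0.913 to 1.57 and 0.645 to 1.01 FPKM. MLANA, KRT5, KRT1, PTPRC and CD3E have no row in the table. The level of the 8 listed of 9 melanocytic markers summed to 267 to 271 FPKM in shALKBH5 and 216 to 226 FPKM in shCtrl. The only listed of 3 immune markers, CD68, was at 38.1 to 41.9 and 14.8 to 17.2 FPKM, while the 4 fibroblast markers summed to 2.90 to 4.08 and 1.77 to 1.85 FPKM, the 2 listed of 4 keratinocyte markers to 10.7 to 11.5 and 8.90 to 9.53 FPKM, with KRT10 higher and KRT14 lower in all shALKBH5 libraries, and the 3 endothelial markers to less than 1 FPKM. The part of these shifts in the results was not tested, and in bulk RNA fewer cells of a type and less RNA per cell cannot be told apart.

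Mitochondrial DNA is transcribed into long precursors in which tRNAs lie between the mRNAs and rRNAs, so that cutting out the tRNAs also frees the other RNAs. The 5′ end of each tRNA is cut by mitochondrial RNase P, which consists of the methyltransferase TRMT10C, the dehydrogenase HSD17B10 and the nuclease PRORP. The 3′ end is cut by ELAC2. HSD17B10 also oxidises an intermediate of isoleucine breakdown, and its relatives act elsewhere: HSD17B4 in peroxisomal beta-oxidation, HSD17B8 with CBR4 in mitochondrial fatty acid synthesis, HSD17B12 in the elongation of very long chain fatty acids, and HSD17B11 on lipid droplets.

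The DNA just before 3 of the genes is shown so that HSD17B10 can be compared with the other tRNA-processing enzymes at the gene start. RefSeq promoter entries (GRCh38.p14) were found for 6 of the 7 genes, and HSD17B12 had none. Capitals mark matches, on either strand, to the CCAAT box (CCAAT), the GC box (GGGCGG) and an ETS motif (CCGGAAG), all searched over the 250 bases before the RefSeq start. The stretches are HSD17B10 at chrX:53434377-53434626 on the minus strand, TRMT10C at chr3:101561618-101561867 on the plus strand and ELAC2 at chr17:13018066-13018277 on the minus strand, each ending before the first transcribed base.
HSD17B10: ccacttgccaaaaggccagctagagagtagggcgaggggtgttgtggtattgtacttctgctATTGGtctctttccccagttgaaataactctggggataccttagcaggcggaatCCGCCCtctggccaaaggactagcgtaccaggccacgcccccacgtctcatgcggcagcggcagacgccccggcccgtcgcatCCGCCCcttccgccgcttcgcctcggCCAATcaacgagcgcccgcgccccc
TRMT10C: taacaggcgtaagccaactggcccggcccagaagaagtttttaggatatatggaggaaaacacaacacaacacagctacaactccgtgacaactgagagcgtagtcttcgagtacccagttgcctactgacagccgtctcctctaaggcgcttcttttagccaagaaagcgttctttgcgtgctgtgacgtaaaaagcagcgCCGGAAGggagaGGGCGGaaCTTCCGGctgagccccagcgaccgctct
ELAC2: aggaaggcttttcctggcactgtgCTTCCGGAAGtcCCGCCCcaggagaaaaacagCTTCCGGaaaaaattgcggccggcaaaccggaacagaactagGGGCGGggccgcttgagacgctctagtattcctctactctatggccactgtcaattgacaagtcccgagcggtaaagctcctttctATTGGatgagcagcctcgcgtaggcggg

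The HSD17B10 stretch held CCAAT boxes beginning 188 and 25 bases before the start and GC boxes beginning 134 and 51 bases before it. TRMT10C had ETS motifs at 48 and 28 bases and a GC box at 36 bases before the start. In ELAC2, ETS motifs lay 226, 223 and 194 bases before the start, the first and second of them overlapping, with GC boxes at 214 and 152 bases and CCAAT boxes at 66 and 16 bases, the last of which falls outside the printed bases. Among all 35116 RefSeq promoters of the same length, 32.01% held a CCAAT box, 42.64% a GC box and 8.517% the ETS motif. The NRF-1 motif (GCGCA, any base, then GCGC, in 5.075% of all promoters) and the TATA box (TATAAA, in 10.72%) had no match in the 6 promoters, which says only that these letters are not in the windows. These matches are descriptions of sequence, not sites of binding.

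HSD17B10 (ENSG00000072506, chromosome X, 53431258 to 53434370, minus strand) was at 156, 156 and 157 FPKM in the shALKBH5 libraries and at 15.3, 13.0 and 13.4 FPKM in the shCtrl libraries. All shALKBH5 libraries lay far above all shCtrl libraries, and the shALKBH5 values were nearly identical to each other, with a coefficient of variation of 0.400% against 8.65% in shCtrl. The mean of 156 ± 0.625 FPKM (SD, n = 3) was 11.3-fold that of the shCtrl libraries, 13.9 ± 1.20 FPKM (SD, n = 3). On the log2(FPKM + 0.1) scale the difference was 3.49 (SE 0.0611). Of the 12985 tested genes, 8 had a larger log2 fold change. By level, HSD17B10 passed from the 79.2 percentile of the tested genes in shCtrl to the 98.4 percentile in shALKBH5. Its neighbour on the opposite strand, RIBC1, which does not overlap it, was at 0.198 to 0.384 FPKM in shALKBH5 and 0.263 to 0.548 FPKM in shCtrl and was too low to be tested.

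TRMT10C (ENSG00000174173, chromosome 3, 101561868 to 101566446, plus strand), which methylates mitochondrial tRNAs and forms the tRNA-binding part of RNase P with HSD17B10, was at 6.02, 5.76 and 5.08 FPKM in shALKBH5 and 4.11, 5.23 and 3.80 FPKM in shCtrl. The groups overlapped, as the lowest shALKBH5 library was below the highest shCtrl library, and the log2 fold change was 0.36 (SE 0.125). PRORP (ENSG00000100890), the nuclease of the enzyme, was at 2.66, 2.91 and 2.81 FPKM in shALKBH5 and 1.73, 1.25 and 2.86 FPKM in shCtrl. Its log2 fold change of 0.58 (SE 0.256) did not pass the test (limma, adjusted p = 0.0872), but without shCtrl replicate 3, the highest of its group, it was 0.88 (limma, adjusted p = 0.00288), and without shCtrl replicate 2, the lowest, it was 0.31 (limma, adjusted p = 0.208). ELAC2 (ENSG00000006744, chromosome 17, 12991612 to 13018065, minus strand) was at 19.9, 19.3 and 20.3 FPKM in shALKBH5 and 20.4, 19.5 and 19.6 FPKM in shCtrl. These ranges overlapped almost fully, with a log2 fold change of -0.0012 (SE 0.0418).

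**Figure D1:**
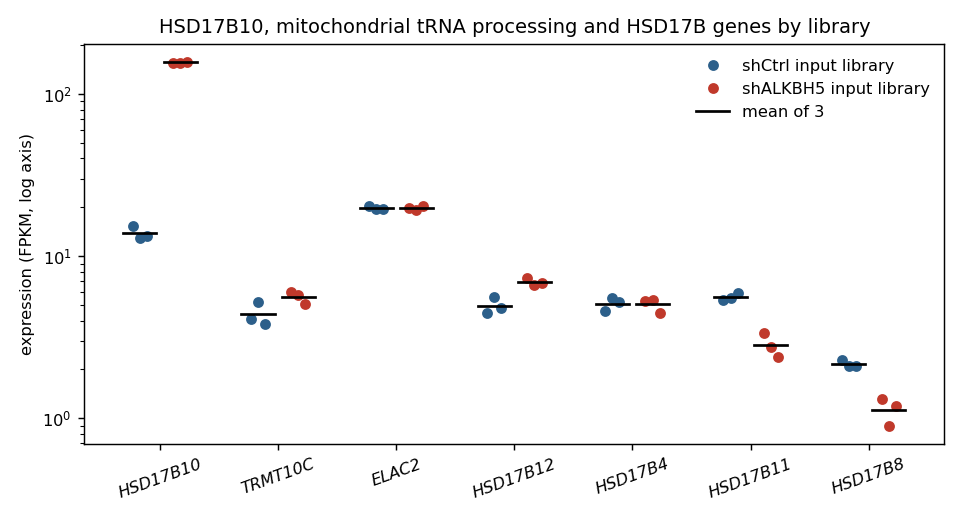
Expression of the 7 genes (FPKM, log axis) in the 3 shCtrl and 3 shALKBH5 input libraries, each point a library and each line the mean of 3. HSD17B10 is at 13.0 to 15.3 FPKM in shCtrl and 156 to 157 FPKM in shALKBH5, ELAC2 lies at 19.3 to 20.4 FPKM in both groups, and HSD17B11 and HSD17B8 are lower in all shALKBH5 libraries.

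The balance among the transcripts of the tRNA-cutting enzymes differed between the groups. Within a library, the ratio of HSD17B10 to TRMT10C was 25.9, 27.1 and 30.9 in shALKBH5 and 3.71, 2.49 and 3.52 in shCtrl. The ratio of HSD17B10 to PRORP was 58.5, 53.5 and 55.9 against 8.80, 10.4 and 4.68. HSD17B10 was below ELAC2 in every shCtrl library, at ratios of 0.748, 0.667 and 0.682, and above it in every shALKBH5 library, at 7.85, 8.06 and 7.74. By contrast, the ratio of TRMT10C to PRORP, 2.26, 1.98 and 1.81 in shALKBH5, lay inside the shCtrl range of 1.33 to 4.19. These are ratios of transcript levels, not of proteins.

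**Figure D2:**
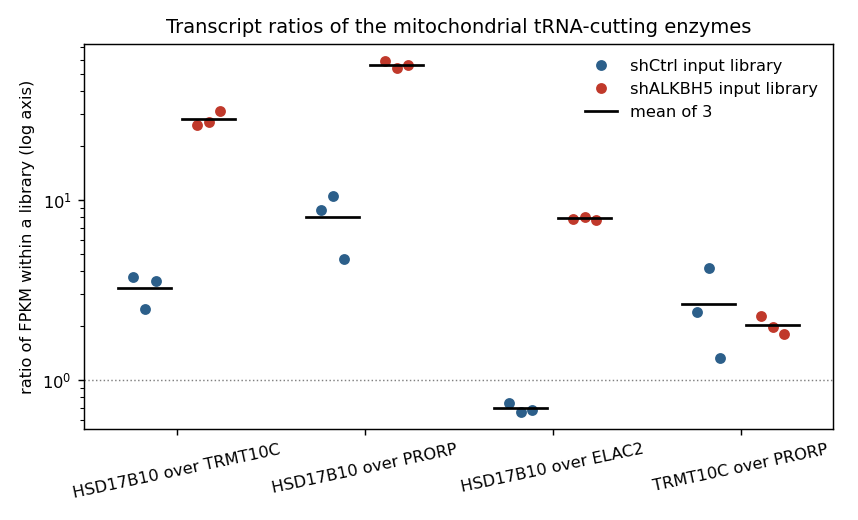
Ratios of FPKM within each input library (log axis) for HSD17B10 over TRMT10C, PRORP and ELAC2, and for TRMT10C over PRORP, with each point a library, each line the mean of 3 and the dotted line a ratio of 1. HSD17B10 over ELAC2 is at 0.667 to 0.748 in shCtrl and 7.74 to 8.06 in shALKBH5, while TRMT10C over PRORP overlaps between the groups.

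The relatives of HSD17B10 went different ways. HSD17B12 (ENSG00000149084, chromosome 11, 43680680 to 43856617, plus strand), the ketoacyl reductase of very long chain fatty acid elongation, was at 7.33, 6.59 and 6.79 FPKM in shALKBH5 and 4.44, 5.59 and 4.77 FPKM in shCtrl. All shALKBH5 libraries were above all shCtrl libraries, with a log2 fold change of 0.48 (SE 0.0923). HSD17B4 (ENSG00000133835, chromosome 5, 119452473 to 119637199, plus strand), the peroxisomal D-bifunctional protein, was at 5.29, 5.38 and 4.48 FPKM in shALKBH5 and 4.58, 5.50 and 5.21 FPKM in shCtrl. Its groups overlapped, with a log2 fold change of -0.014 (SE 0.0979).

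HSD17B11 (ENSG00000198189, chromosome 4, 87336515 to 87391188, minus strand), a dehydrogenase found on lipid droplets, was at 3.33, 2.73 and 2.37 FPKM in shALKBH5 and 5.37, 5.55 and 5.91 FPKM in shCtrl. HSD17B8 (ENSG00000204228, chromosome 6, 33204655 to 33206831, plus strand), a subunit of the mitochondrial ketoacyl reductase, was at 1.31, 0.899 and 1.19 FPKM in shALKBH5 and 2.29, 2.11 and 2.11 FPKM in shCtrl. For both genes every shALKBH5 library was below every shCtrl library. The log2 fold changes were -0.98 (SE 0.120) for HSD17B11 and -0.89 (SE 0.140) for HSD17B8. The level of CBR4, the partner of HSD17B8, fell too, from 2.14 ± 0.342 to 1.37 ± 0.0801 FPKM (SD, n = 3), by 0.59 on the log2 scale (limma, adjusted p = 0.00465).

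HSD17B10 made up 41.0% to 47.8% of the summed FPKM of the 5 HSD17B genes in the shCtrl libraries and 90.0% to 91.4% in the shALKBH5 libraries. In shCtrl the order by FPKM was ELAC2, HSD17B10, HSD17B11, HSD17B4, HSD17B12, TRMT10C and HSD17B8, and the neighbours from HSD17B11 to TRMT10C overlapped in range. In shALKBH5 it was HSD17B10, ELAC2, HSD17B12, TRMT10C, HSD17B4, HSD17B11 and HSD17B8, and among neighbours only TRMT10C and HSD17B4 overlapped. Groups did not overlap for 4 of the 7 genes, against 67% of the tested genes, and nothing is read from the comparison since the genes were chosen on this contrast. The median log2 fold change of the 7 genes was -0.0012, beside 0.09 for all tested genes.

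The 5 tested genes whose pattern was most like that of HSD17B10, by the root mean square difference of log2(FPKM + 0.1) from the shCtrl mean over 6 libraries, were INMT, TCN1, C3AR1, SLAMF9 and LIVAR, at 0.148, 0.222, 0.285, 0.355 and 0.406. INMT, an indolethylamine methyltransferase, was at 19.1, 19.8 and 20.5 FPKM in shALKBH5 and 1.82, 1.86 and 1.97 FPKM in shCtrl. TCN1, a vitamin B12-binding protein, was at 26.6, 28.3 and 28.0 FPKM against 1.90, 2.58 and 1.95 FPKM. LIVAR, at 1.35, 0.899 and 0.756 FPKM in shALKBH5 and 0, 0.058 and 0 FPKM in shCtrl, passed the filter only through its shALKBH5 level, and its value depends on the 0.1 added before the logarithm. All of these had lower levels than HSD17B10 in both groups.

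Beyond the 7 genes, the pathways in which they act were followed through lists of textbook members, from which the 7 genes were left out. Of 163 tested genes on all lists, 60 rose and 24 fell at an adjusted p below 0.05 (limma, over all tested genes), or 45 and 31 after rescaling. Without rescaling, 51.53% passed in either direction beside 61% of all tested genes. Over all tested genes 34.7% rose and 26.2% fell (4509 and 3408 genes, or 3788 and 3898 after rescaling). The lists are described by these counts and by their median log2 fold change beside the 0.09 of all tested genes. Rescaling each library by its median ratio to the others shifted the median of all tested genes to 0.015, and the counts under it are given in the same sentences.

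Of 24 tested genes of mitochondrial tRNA maturation, which add the CCA end and modify bases, 11 rose and 1 fell, or 8 and 3 after rescaling, with a median of 0.25. MRM1 rose from 4.55 ± 0.416 to 9.41 ± 0.526 FPKM (SD, n = 3; log2 fold change 1.03, limma, adjusted p = 3.10e-05). YRDC, which makes the threonylcarbamoyl group placed on tRNAs, rose from 26.1 ± 1.25 to 40.1 ± 0.873 FPKM (log2 fold change 0.62, limma, adjusted p = 2.67e-05). THG1L, a tRNA-histidine guanylyltransferase, was the gene that fell (log2 fold change -0.24, limma, adjusted p = 0.0428). MRM1 and, named after their values were seen, MRM2 and MRM3, all among those that rose, are known as methyltransferases of mitochondrial rRNA rather than tRNA.

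Of 29 tested genes of mitochondrial RNA synthesis, processing and decay, 17 rose and 4 fell, or 12 and 5 after rescaling, with a median of 0.35. SSBP1, the mitochondrial single-stranded DNA-binding protein, fell from 15.6, 16.6 and 15.1 FPKM in shCtrl to 2.81, 2.71 and 2.69 FPKM in shALKBH5 (log2 fold change -2.48, limma, adjusted p = 2.40e-07). TFB1M, a dimethylase of mitochondrial rRNA, fell by 0.60 on the log2 scale (limma, adjusted p = 0.00016). POLG2, a subunit of the mitochondrial DNA polymerase, rose by 0.92 and TEFM, the transcription elongation factor of mitochondria, by 0.83 (limma, adjusted p = 8.08e-05 and 0.00130). SSBP1 and POLG2 are known for replication of mitochondrial DNA. So are POLG and TWNK, counted among those that rose and named after their values were seen. They were at 0.35 and 0.45 (limma, adjusted p = 0.00279 and 6.38e-05).

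Of 15 mitochondrially encoded mRNAs and rRNAs, 2 rose and 4 fell, or 1 and 4 after rescaling, with a median of 0.0015. MT-RNR2, the large rRNA, rose from 16.3 ± 1.30 to 20.2 ± 1.44 FPKM (SD, n = 3; log2 fold change 0.31, limma, adjusted p = 0.00957). MT-CO2, a subunit of cytochrome oxidase, rose by 0.29 (limma, adjusted p = 0.0373), which was lost on rescaling (limma, adjusted p = 0.0741). The subunits of respiratory complex I MT-ND5 and MT-ND4L fell by 0.32 and 0.31 on the log2 scale (limma, adjusted p = 0.0136 and 0.0387). The other 2 that fell, named after their values were seen, were MT-ND4 and MT-ATP6, at -0.26 and -0.23. MT-ND4L and MT-ND4 share a transcript and overlap, so the split of reads between them is uncertain. The same holds for MT-ATP6 and MT-ATP8. MT-ATP8, named after its values were seen, was at 0.0015 and did not pass (limma, adjusted p = 0.979).

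Mitochondrial tRNAs are short and mostly not polyadenylated, and the libraries were made from poly(A) RNA. Of the 20 in the table, 9 passed the filter and 1 rose and 0 fell, or 2 and 0 after rescaling and 3 and 0 at an unadjusted p below 0.05 (limma). MT-TY was at 5.94, 8.15 and 5.65 FPKM in shALKBH5 and at 6.20 FPKM in shCtrl replicate 2, and was listed at 0 in the other two shCtrl libraries (limma, adjusted p = 0.0468). Its groups overlapped, and without shALKBH5 replicate 3 no gene of this list passed. MT-TS1, the most abundant, was at 20.6 to 23.3 FPKM in shALKBH5 and at 23.1, 18.0 and 0 FPKM in shCtrl (limma, adjusted p = 0.261). MT-TC, named after its values were seen, is among the 3 at an unadjusted p below 0.05 (limma). It was at 2.49, 0 and 2.11 FPKM in shALKBH5 and 0 in every shCtrl library. It passed the filter only through its shALKBH5 level, and its value depends on the 0.1 added before the logarithm. Of those below the filter, MT-TL2 and MT-TS2 were lower and MT-TT and MT-TW higher in all shALKBH5 libraries, and none was tested.

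Of 23 tested genes of branched-chain amino acid breakdown, the pathway of the dehydrogenase activity of HSD17B10, 13 rose and 1 fell, or 11 and 2 after rescaling, with a median of 0.21. ACADSB, the dehydrogenase for short branched chains that acts upstream of HSD17B10 on isoleucine, rose from 0.665 ± 0.160 to 1.85 ± 0.172 FPKM (SD, n = 3; log2 fold change 1.36, limma, adjusted p = 0.00035). MCEE, the methylmalonyl-CoA epimerase, rose by 0.72 on the log2 scale (limma, adjusted p = 0.00716). ACAT1, the thiolase that follows HSD17B10 in isoleucine breakdown and was named after its values were seen, was at a log2 fold change of 0.43. ECHS1, the hydratase between ACADSB and HSD17B10, likewise named after its values were seen, was at 97.9 FPKM in shALKBH5 and 107 FPKM in shCtrl, with all shALKBH5 libraries below, and did not pass (log2 fold change -0.13, limma, adjusted p = 0.090). The gene that fell was BCKDK, the kinase that inactivates the branched-chain ketoacid dehydrogenase, from 24.1 ± 0.984 to 17.2 ± 0.381 FPKM (log2 fold change -0.48, limma, adjusted p = 8.51e-05).

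**Figure D3:**
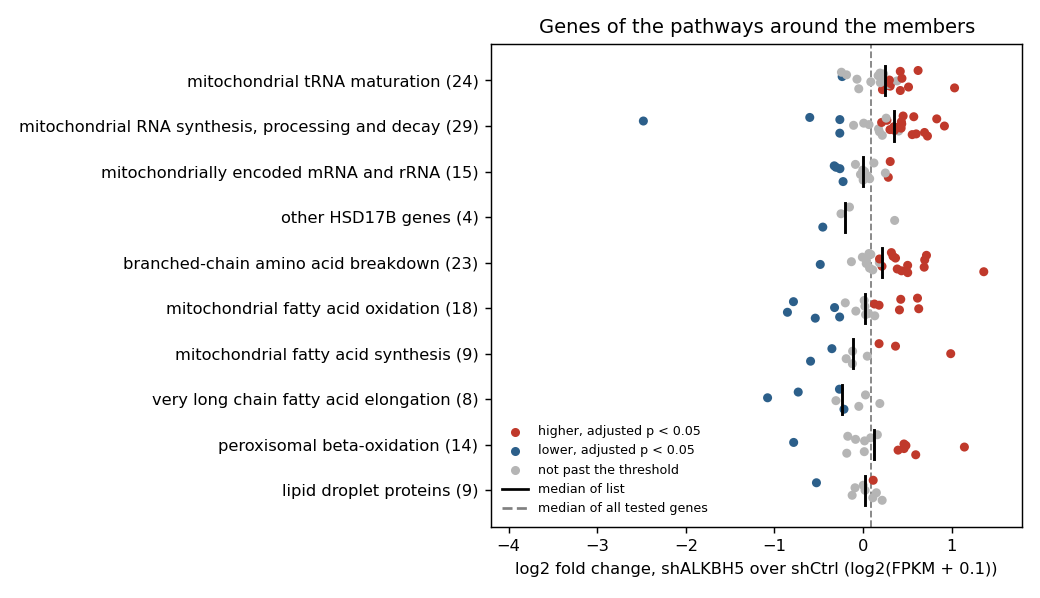
The log2 fold change of shALKBH5 over shCtrl for each tested gene of 10 pathway lists, with the number of tested genes in brackets, red and blue points past an adjusted p of 0.05, black lines at the list medians and a dashed line at the median of all tested genes, 0.09. The medians lie between -0.24 for very long chain fatty acid elongation and 0.35 for mitochondrial RNA synthesis, processing and decay, and SSBP1 is the point at -2.48.

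Among the lipid pathways of the relatives, the elongation of very long chain fatty acids, that of HSD17B12, had no gene that rose and 4 of 8 that fell, or 5 after rescaling, with a median of -0.24. At an unadjusted p below 0.05 (limma) these counts were also 0 and 4. HACD1, at 0.328 ± 0.0874 FPKM in shALKBH5 and 0.793 ± 0.0774 FPKM in shCtrl (SD, n = 3), passed the filter of 0.5 FPKM only through its shCtrl level, and with a filter at 1 FPKM the genes that fell were 3. HACD1 and HACD3, which encode dehydratases of the step after HSD17B12, fell by 1.08 and 0.73 on the log2 scale (limma, adjusted p = 0.00268 and 0.000539). Another gene of this step, HACD2, named after its values were seen, was at 3.96 FPKM in shALKBH5 and 3.90 FPKM in shCtrl and did not pass (limma, adjusted p = 0.802). TECR, the reductase of the last step, and ELOVL1, an elongase, were the others that fell, at -0.27 and -0.22, and were named after their values were seen. HSD17B12 itself was higher in all shALKBH5 libraries, so its direction differed from those of these 4 genes.

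Of 9 tested genes of mitochondrial fatty acid synthesis, that of HSD17B8, 3 rose and 2 fell, or 1 and 2 after rescaling, with a median of -0.12. RPP14, counted among the 3 that rose (log2 fold change 0.18, limma, adjusted p = 0.0429; 0.205 after rescaling) and named after its values were seen, is known as a subunit of nuclear RNase P. The dehydratase of fatty acid synthesis made from the same locus, HTD2, has a row of its own, with a log2 fold change of -0.19 (limma, adjusted p = 0.532), and the split of reads between them is uncertain. MCAT, the malonyl transferase, rose from 4.13 ± 0.223 to 8.31 ± 0.438 FPKM (SD, n = 3; log2 fold change 0.99, limma, adjusted p = 1.66e-05). OXSM, the ketoacyl synthase, rose by 0.37 (limma, adjusted p = 0.0304), which was lost on rescaling (limma, adjusted p = 0.0750). CBR4 and NDUFAB1, the acyl carrier protein, fell, NDUFAB1 by 0.35 on the log2 scale (limma, adjusted p = 0.00157).

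Peroxisomal beta-oxidation, that of HSD17B4, had 6 of 14 tested genes that rose and 1 that fell, or 6 and 2 after rescaling, with a median of 0.12. The acyl-CoA oxidase ACOX2 rose by 1.14 on the log2 scale (limma, adjusted p = 9.35e-06), while CRAT, a carnitine acetyltransferase, fell by 0.78 (limma, adjusted p = 8.64e-05). Mitochondrial fatty acid oxidation was mixed, with 6 of 18 genes that rose and 5 that fell, or 4 and 5 after rescaling, and a median of 0.03. CPT1A, which loads fatty acids for entry into mitochondria, fell from 11.6 ± 0.209 to 6.40 ± 0.262 FPKM (SD, n = 3; log2 fold change -0.85, limma, adjusted p = 9.60e-06) and HADH, the short-chain hydroxyacyl dehydrogenase, fell by 0.79. DECR1 and the carnitine carrier SLC25A20 rose by 0.63 and 0.62.

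Of 9 tested lipid droplet genes, the site of HSD17B11, 1 rose and 1 fell, or 0 and 1 after rescaling and 2 and 1 at an unadjusted p below 0.05 (limma), with a median of 0.02. PLIN3, a droplet coat protein, fell by 0.53 on the log2 scale (limma, adjusted p = 0.00013), and PNPLA2, a triglyceride lipase, was 0.11 higher (limma, adjusted p = 0.0445), a call lost on rescaling (limma, adjusted p = 0.558). Of the 4 tested among 8 other HSD17B genes in the table, AKR1C3 fell, by 0.45 (limma, adjusted p = 0.000967), and the others did not pass. The counts of genes that rose and fell were 0 and 1, also at an unadjusted p below 0.05 (limma), and 0 and 2 after rescaling.

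The m6A peaks came as 1 list per group, with no value per library, so no test was run on them here. A fold enrichment here is the IP over the input within a peak, and spans include introns. The shALKBH5 list held 11 peaks in 6 of the 7 genes among 46039 peaks, and the shCtrl list 12 peaks in all 7 genes among 44304 peaks. Of the tested genes, 85.98% and 85.53% had a peak. The peaks of the 7 genes had a median fold enrichment of 2.32 in shALKBH5 and 2.99 in shCtrl, beside 5.31 and 5.25 over the whole lists. Most lay in the 3′ UTR, 8 of 11 and 7 of 12, where 45.47% and 46.19% of all peaks lay.

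HSD17B10 had 1 peak in each list, both at the start of the gene. In shCtrl it ran from 53433845 to 53434370 on chromosome X, 526 bp that reached the gene start, was annotated as 5′ UTR and had a fold enrichment of 2.55. In shALKBH5 it ran from 53433816 to 53434282, 467 bp that began 88 bp from the gene start, was annotated as exonic and had a fold enrichment of 1.8. The peaks shared 438 bp. Both enrichments were low for their lists, at percentiles 19.6 and 8.11. The log10 p of the peak caller was -5.34 in shCtrl and -52.2 in shALKBH5, the opposite order to the fold enrichment. Such a p-value depends on the number of reads as well as the ratio, and the transcript was 11.3-fold higher in the shALKBH5 input. The part of that level in the peak values was not tested.

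**Figure D4:**
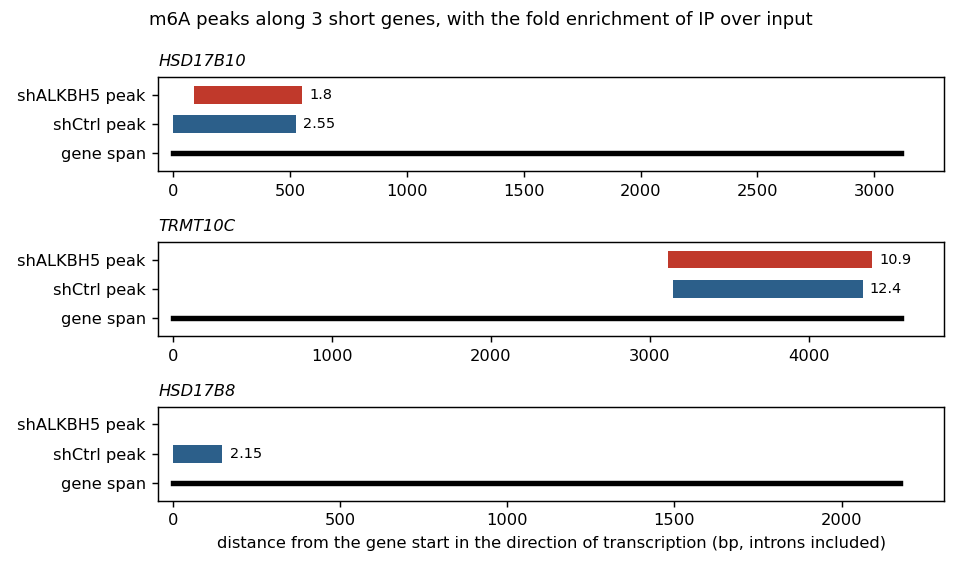
Peaks of HSD17B10, TRMT10C and HSD17B8 along each gene, in bp from the gene start in the direction of transcription, with shALKBH5 peaks in red, shCtrl peaks in blue, the gene span in black and the fold enrichment beside each peak. HSD17B10 has its peaks at the start, with fold enrichments of 1.8 and 2.55, TRMT10C near its end, with 10.9 and 12.4, and HSD17B8 has a peak in the shCtrl list only.

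TRMT10C carried 1 long 3′ UTR peak in each list, of 1285 bp in shALKBH5 and 1195 bp in shCtrl, with fold enrichments of 10.9 and 12.4. PRORP had 5 peaks in each list, some of them nested. ELAC2 had 3 peaks in its 3′ UTR in both lists, with fold enrichments of 4.02, 2.11 and 4.08 in shALKBH5 and 3.43, 2.15 and 3.82 in shCtrl. A further intronic ELAC2 peak in shCtrl had a fold enrichment of 7.66 at a log10 FDR of only -0.627.

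HSD17B12 had the highest enrichment of the relatives, a 5′ UTR peak at the gene start of 16.1 in shALKBH5 and 17.1 in shCtrl. Its span was 479 bp in shALKBH5 and 43379 bp in shCtrl, the longer span running across introns. Its 3′ UTR peak was at 2.22 and 2.28, and another in shALKBH5 alone was at 7.35 with a log10 FDR of -0.585. HSD17B4 had a shared 3′ UTR peak of 2.07 in shALKBH5 and 2.17 in shCtrl, a 5′ UTR peak of 2.32 in the shALKBH5 list alone and an exonic peak of 1.46 in the shCtrl list alone. For HSD17B8 the shCtrl list had a 5′ UTR peak of 2.15, with a log10 FDR of -1.46, and the shALKBH5 list had none. A peak in 1 list alone is not a tested difference.

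Among the 9 peaks found in both lists, that of HSD17B11 differed most. This 3′ UTR peak had a fold enrichment of 2.27 over 270 bp in shALKBH5 and 5.76 over 360 bp in shCtrl, a ratio of 0.394, in a gene whose transcript was also lower in shALKBH5. Of these 9 overlapping pairs, 7 had the lower fold enrichment in shALKBH5 and 2, both in ELAC2, the higher. Among all 43596 overlapping pairs within a gene, 52.93% were lower in shALKBH5, with a median ratio of 0.9694.

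**Figure D5:**
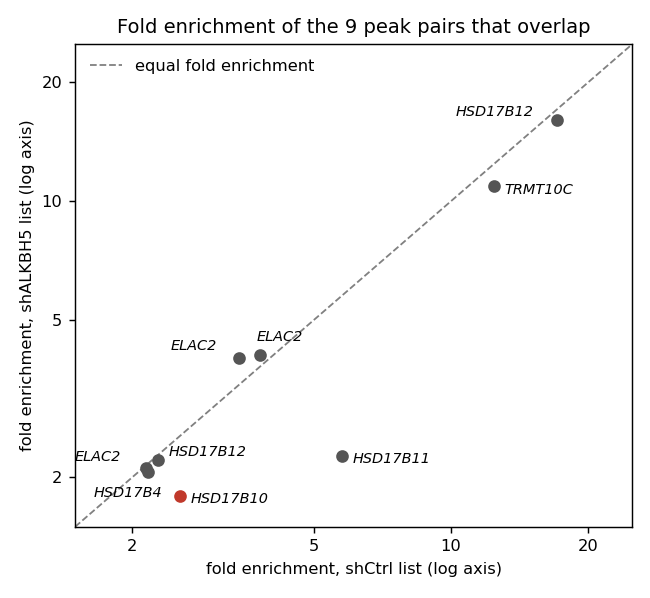
Fold enrichment of IP over input in the shCtrl list (x, log axis) and the shALKBH5 list (y, log axis) for the 9 overlapping peak pairs, each point a pair, with HSD17B10 in red and a dashed line of equal enrichment. HSD17B11, at 5.76 and 2.27, and HSD17B10, at 2.55 and 1.8, lie farthest below the line, and 2 ELAC2 pairs lie above it.

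The authors' table of differential peaks lists 1 peak each of HSD17B11, at chromosome 4, 87336575 to 87336904, and ELAC2, at chromosome 17, 12992330 to 12992899, both in the 3′ UTR. HSD17B10 and the other 4 genes are not in it. Of the tested genes, 32.67% are. The fold changes and p-values of that table are the authors' comparison and are not given here.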

How the data were processed

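RNA-Seq of 6 input libraries and MeRIP-Seq of 6 IP libraries from A375 cells was analysed from processed files. Expression was deposited by the authors in FPKM for every library, and peaks as lists, 1 per group, with a fold enrichment ratio of IP over input and log10 p and log10 FDR, kept here as scores from the deposited lists. Per the file headers, the deposited differential peak table gives peak lengths and positions, of which positions and regions were used. The tables' fold change and p-value columns are the authors' comparisons and were not used. Aligner, counter, annotation and peak caller are not given in the sources used here. The submitters' processing notes name mm10, a mouse build, yet 14406 of 21750 genes shared by symbol with RefSeq GRCh38.p14 have the same start or end, so positions are on GRCh38. Peak starts count from 0 in the files and are given from 1.

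FPKM were tested as log2(FPKM + 0.1) with limma 3.58.1 (R 4.3.3; lmFit, eBayes with trend, two-sided, Benjamini-Hochberg over 12985 genes whose mean reached 0.5 FPKM), since the count-based test of the study needs read counts. Rescaling, other pseudocounts and filters, a replicate block and leaving out libraries were the alternatives. The test was checked on simulated data. Members and lists were chosen with earlier results of these data known. Named were the 7 genes, ALKBH5, PRORP, CBR4, in each list up to 2 genes with the largest rise and 2 with the largest fall among those past the threshold, and the 5 genes most like HSD17B10. A further gene under this rule is not reported here. Peaks overlapped with at least 1 bp on the same strand. Samples were grouped by their titles, and library sums ranged from 212760 to 223231 FPKM.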

Additional observations from a re-analysis of the deposited data

How the results depend on the processing

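The log2 fold change of HSD17B10 stayed between 3.40 and 3.56 in every alternative run, and between 3.44 and 3.56 when a library was left out. With a pseudocount of 1, HSD17B8 was at -0.58 and HSD17B11 at -0.80. Rescaling put ELAC2 at -0.08. TRMT10C ranged from 0.27 to 0.49 and HSD17B12 from 0.41 to 0.57, while ELAC2 and HSD17B4 took either sign, from -0.08 to 0.02 and from -0.09 to 0.07. PRORP ranged from 0.31 to 0.88. Mitochondrial tRNA calls, 1 in the report, were 2 with no filter, with a filter at 1 FPKM and after rescaling. Rescaling gave 2 calls for other HSD17B genes and 3 for mitochondrial fatty acid synthesis, and 1 for lipid droplet proteins, as did no filter. Leaving out a library gave 0 to 2 mitochondrial tRNA calls, 1 to 2 lipid droplet calls and 3 to 5 mitochondrial fatty acid synthesis calls. The tRNA call was lost without shALKBH5 replicate 3 and was 2 without shCtrl replicate 1. The synthesis calls were 3 without shALKBH5 replicate 1 or 2, and the lipid droplet calls were 1 without any shALKBH5 library or shCtrl replicate 2 or 3. The cause was not tested. The other lists kept their counts within 1.5 times. Requiring a fold enrichment of 2 and an FDR of 0.01 left 9 peaks in each list, without that of HSD17B10 in shALKBH5, and a reciprocal overlap of 50% left 7 shared.

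Libraries of the same replicate number showed no shared deviation (correlations of 0.018, -0.046 and 0.059, against -0.062 to 0.044 for different numbers). This does not settle whether the libraries were paired, and the labels do not say what the numbers stand for. With the replicate number as a block, 7271 genes passed instead of 7917, with 3 mitochondrial tRNA, 3 mitochondrial fatty acid synthesis and 1 lipid droplet calls. With depth unknown, genes near the filter are the least certain.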

Other observations

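CBR4, the partner of HSD17B8, had 1 peak in each list at its gene start, with a fold enrichment of 2.94 in shALKBH5 and 5.75 in shCtrl, and 210 bp were shared. RIBC1, the neighbour of HSD17B10 on the opposite strand, had 2 peaks in each list, at fold enrichments of 2.33 and 3.67 in shALKBH5 and 3.47 and 3.14 in shCtrl.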
